A study of Mus musculus with 34 samples.

Results

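Expression of 9 genes grouped as early response genes was followed in bulk RNA-seq of the dorsal hippocampus. The genes were *Npas4*, *Btg1*, *Btg2*, *Ier2*, *Ier3*, *Ier5*, *Gadd45a*, *Gadd45b* and *Gadd45g*. They were taken by symbol from GENCODE M21, matched to the gene identifiers of the count table. Each matched 1 of the 54532 genes of that table, and all 9 were among the 22018 genes with enough counts to be tested. The libraries came from adult male C57BL/6J mice, 2 to 3 months old by the methods, with 1 library per mouse. The 4 SOR mice were killed 1 h after training in spatial object recognition, in which mice explore an open field with objects at fixed places, and the 4 homecage mice were not trained. Only this time was sampled in these libraries, so an earlier or later change could not be seen. No genetic change or drug is named for either group. Expression is given as CPM, counts scaled to a common library size, here with upper-quartile factors, and total counts lay between 54934184 and 81525977 in the homecage group and between 51406011 and 72070472 in the SOR group.

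NPAS4 is a transcription factor of the bHLH-PAS family that neurons make after calcium entry and that acts as a dimer with ARNT2 or ARNT. BTG1 and BTG2 restrain proliferation and bring the CCR4-NOT deadenylase to mRNAs, and the IER proteins are short-lived products of stimulated cells, of which IER2 and IER5 bind the phosphatase PP2A. The GADD45 proteins are small stress-induced adaptors that bind MAP3K4, PCNA and CDKN1A and have been linked to removal of DNA methylation. Most, but not all, of these genes are known as rapidly induced after growth factor, stress or synaptic stimulation. The set was read beside the *Fos*, *Egr* and *Nr4a* genes measured in the same libraries.

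The control regions of these genes differ in the letters they hold. RefSeq (GRCm38.p6) promoter windows from 250 bases before to 50 bases after the start were matched for 8 of the 9 genes, all but *Ier2*. The GENCODE start of *Npas4* lies 345 bases upstream of its RefSeq start. Its whole window thus lies downstream of the GENCODE start and may not be its promoter. Of the 8 windows, 1 holds the full cAMP response element TGACGTCA, that of *Btg2*, at bases -166 to -159 from the start, while 1.79% of the 32851 windows of all genes hold it. Its core TGACG is in the windows of *Npas4*, *Btg1* and *Btg2* and in 20.8% of all windows. The letters TATAAA are in those of *Btg1*, *Gadd45b* and *Gadd45g* and in 13.6% of all windows, and the E-box CACGTG is in those of *Gadd45b* and *Gadd45g* and in 7.15%. None of the 8 windows holds a CArG box, an EGR site (GCGTGGGCG or GCGGGGGCG), an AP-1 site (TGACTCA or TGAGTCA) or an NF-kB site, which are in 1.63%, 3.47%, 5.20% and 5.80% of all windows. CCAAT and the GC box GGGCGG are in 7 of the 8 windows each and in 37.4% and 35.7% of all. Both strands were searched, and the core is part of the full element. A match is a string of letters only, and the letters are described here, not binding.

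The stretches before the start are shown for *Btg2*, which holds the full cAMP response element, and for *Gadd45b* and *Gadd45a*, the GADD45 genes with the highest and the lowest log2 fold change. Each is written 5′ to 3′ in the direction of the gene and ends before the start in both RefSeq and GENCODE. Capitals mark a cAMP response element, TATAAA or an E-box. *Btg2* is at chr1:134079156-134079405 on the minus strand, *Gadd45b* at chr10:80929841-80930072 on the plus strand, and *Gadd45a* at chr6:67037458-67037657 on the minus strand, where no capital stands.

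Btg2: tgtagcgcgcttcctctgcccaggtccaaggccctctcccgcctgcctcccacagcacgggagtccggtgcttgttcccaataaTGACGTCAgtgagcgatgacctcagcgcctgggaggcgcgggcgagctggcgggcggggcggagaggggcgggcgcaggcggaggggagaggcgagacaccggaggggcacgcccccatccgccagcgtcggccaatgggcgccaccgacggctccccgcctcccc

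Gadd45b: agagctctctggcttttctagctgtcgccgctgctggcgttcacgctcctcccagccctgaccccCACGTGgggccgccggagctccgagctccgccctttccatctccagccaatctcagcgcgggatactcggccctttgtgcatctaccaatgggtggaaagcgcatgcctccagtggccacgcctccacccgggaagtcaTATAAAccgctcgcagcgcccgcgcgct

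Gadd45a: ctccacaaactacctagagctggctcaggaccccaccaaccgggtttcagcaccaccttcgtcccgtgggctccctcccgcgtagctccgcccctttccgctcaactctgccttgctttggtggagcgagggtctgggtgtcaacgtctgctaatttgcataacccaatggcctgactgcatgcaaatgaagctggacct

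None of the 9 genes passed an adjusted p of 0.05 in the comparison of SOR with homecage mice (quasi-likelihood test of edgeR, adjusted by Benjamini-Hochberg across the 22018 genes). Over all genes, 0.309% passed, 60 of them higher and 8 lower in SOR mice, and 0.173% also had a fold change above 1.4. The study reported more genes than this from its own bulk comparison of these mice at the same thresholds, with a correction for unwanted variation. Not passing here is therefore not a finding of no change. At an unadjusted p under 0.05, 2 of the 9 passed, *Gadd45b* and *Gadd45g*, against 10.1% of all genes. The 4 SOR libraries lay beyond all 4 homecage libraries for 1 of the 9, *Gadd45b*, and for 6.94% of all genes in either direction. The log2 fold changes of 5 genes were above 0 and of 4 below 0, with a median of 0.096, while the median of all genes tested was -0.019, with 43.8% of them above 0. DESeq2 and edgeR's likelihood ratio test with 3 RUVs factors each passed 1 of the 9, *Gadd45b*. RUVs factors take out unwanted variation estimated from differences between replicates. Over all genes, 2.45% of the 17744 to which DESeq2 gave an adjusted p passed, and 2.31% of the 22018 with RUVs factors. Neither fit brought *Gadd45b* above a fold change of 1.4, which DESeq2 missed narrowly, with a log2 fold change of 0.48522 against a threshold of 0.48543.

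**Figure D1:**
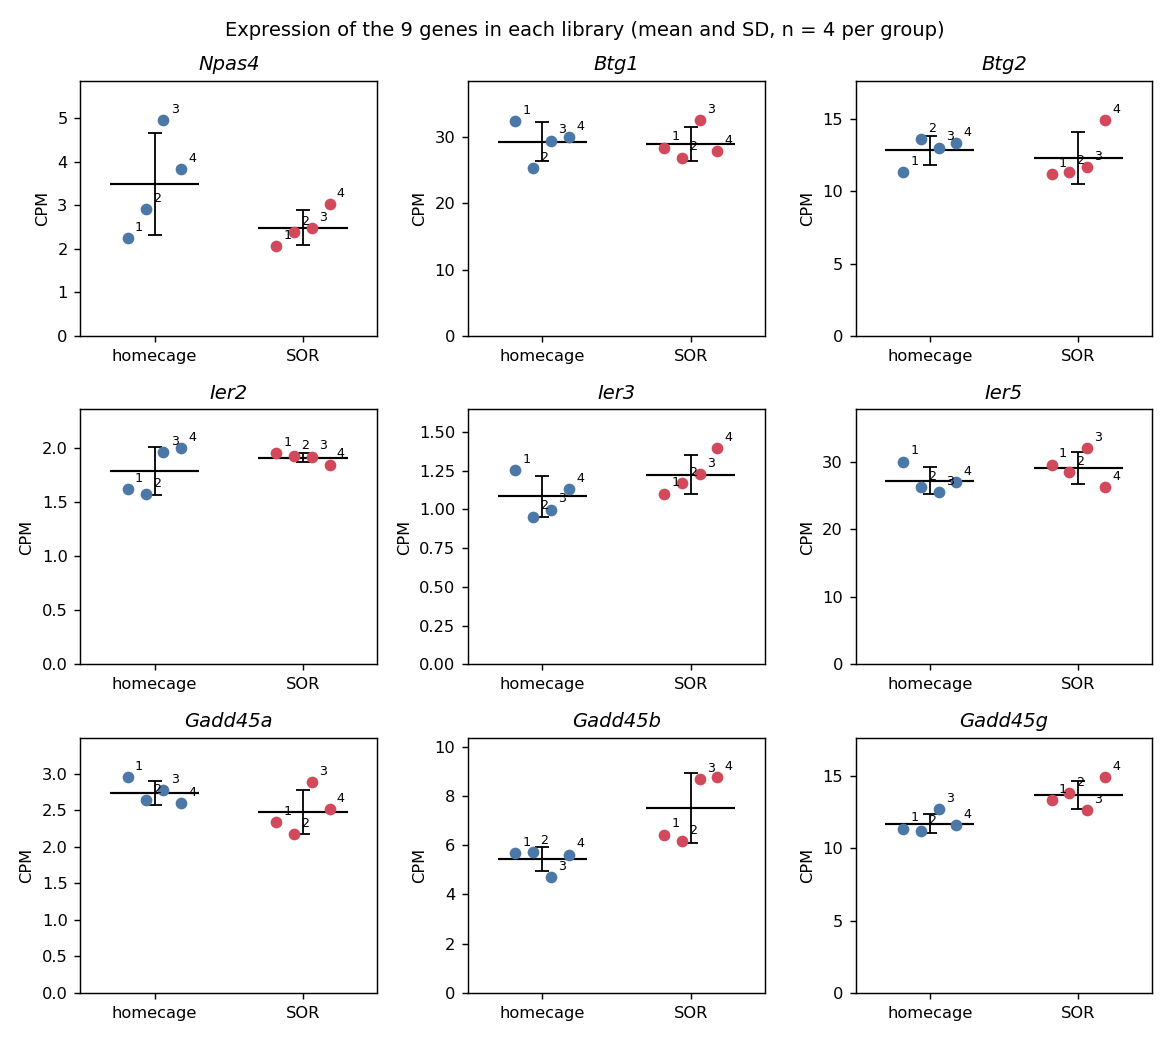
CPM (vertical axes, from 0) of each of the 9 genes in the 4 homecage and 4 SOR libraries; points are libraries with their replicate number, and lines with bars are the mean and SD. The groups are separated for *Gadd45b* alone, and *Npas4* runs from 2.25 to 4.96 CPM among homecage mice, the widest of the 9 relative to its mean (coefficient of variation 33.6%).

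*Npas4* (ENSMUSG00000045903, chromosome 19 from 4984355 to 4990316, minus strand) was lower, not higher, on average 1 h after training, and the difference did not pass the test. It had 2.25, 2.92, 4.96 and 3.83 CPM in homecage replicates 1 to 4 and 2.06, 2.38, 2.47 and 3.02 CPM in SOR replicates 1 to 4. The SOR libraries lay within the lower part of the homecage range or just under it, and 2 homecage libraries, replicates 3 and 4, were above all SOR libraries. The means were 3.49 ± 1.17 and 2.48 ± 0.402 CPM (SD, n = 4 per group), or -0.49 on the log2 scale (standard error, SE, 0.226, 95% interval -0.99 to 0.0048, adjusted p = 0.503 by edgeR). A rise of 1.4-fold lay outside that interval, whose lower end was a fold change of 0.502. By exact permutation of the mice on log2 CPM, two-sided, p was 0.200. Leaving out homecage replicate 3 brought it to -0.28 (adjusted p = 0.765 by edgeR). The gene rested on 124 to 305 estimated counts per library.

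The spread of *Npas4* between mice was wide for its level. Its SD within groups was 0.380 on the log2 scale, above that of 89.4% of the 3728 tested genes with a mean CPM within 2-fold of its own, whose median was 0.209. Its coefficient of variation was 33.6% in homecage and 16.2% in SOR mice. The homecage library with most *Npas4*, replicate 3, had about as much *Fos*, the classical early gene, as replicate 1, which had least *Npas4*: *Fos* had 4.54, 2.60, 4.59 and 2.47 CPM in homecage replicates 1 to 4 and 11.1, 12.03, 15.1 and 14.3 CPM in SOR replicates 1 to 4. *Fos* thus separated the groups in the same libraries in which *Npas4* did not.

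Of the partners of NPAS4, 5 of 7 genes of a list of dimer partners and related bHLH-PAS genes were tested, and none passed. *Arnt2*, the main partner in neurons, had 114 ± 9.84 CPM without training against 116 ± 6.32 CPM after it (± SD, 4 mice each). *Npas2*, a partner of the clock gene product BMAL1, had the smallest p of the list (log2 fold change -0.19, adjusted p = 0.670 by edgeR). Genes reported as targets of NPAS4 numbered 8, all tested, and none passed the adjusted p threshold, while 6 had log2 fold changes above 0, with a median of 0.14, and 5 had an unadjusted p under 0.05, against 10.1% of all genes. *Nptx2*, which encodes a secreted pentraxin of excitatory synapses, was nearest, with 15.0 ± 1.51 CPM without training against 20.0 ± 1.76 CPM after it (± SD, 4 mice each), which is 0.41 on the log2 scale (SE 0.0901, adjusted p = 0.122 by edgeR). *Bdnf*, the neurotrophin gene, had a log2 fold change of 0.17 (adjusted p = 0.400 by edgeR). The 4 SOR libraries did not overlap the homecage libraries for 3 of these 8 targets, *Nptx2*, *Plk2* and *Csrnp1*, against 6.94% of all genes.

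Among the BTG genes, no difference between the groups 1 h after training could be told from the spread between mice. *Btg1* (ENSMUSG00000036478, chromosome 10 from 96617006 to 96622809) had 32.3, 25.2, 29.4 and 29.9 CPM in homecage replicates 1 to 4 and 28.3, 26.8, 32.5 and 27.8 CPM in SOR replicates 1 to 4. These ranges nearly coincide. Its log2 fold change was -0.016 (SE 0.0843, 95% interval -0.20 to 0.17, adjusted p = 0.972 by edgeR), and its sign turned with TMM, RLE and DESeq2 scaling. The annotated pseudogenes *Btg1-ps1* and *Btg1-ps2* on chromosome X had 0 counts in every library.

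*Btg2* (ENSMUSG00000020423, chromosome 1 from 134075170 to 134079120, minus strand), the gene whose promoter window holds the full cAMP response element shown above, had 11.4, 13.6, 13.03 and 13.3 CPM in homecage and 11.2, 11.4, 11.7 and 14.9 CPM in SOR replicates 1 to 4. SOR replicate 4 was the highest of all 8 libraries, and the other 3 SOR libraries were in the lower part of the range. The log2 fold change was -0.064 (SE 0.106, 95% interval -0.30 to 0.17, adjusted p = 0.890 by edgeR), and -0.17 without SOR replicate 4. The ratio of *Btg2* to *Btg1* CPM ran from 0.352 to 0.540 in homecage and from 0.360 to 0.537 in SOR libraries, so that the balance of the pair did not differ between the groups beyond their spread.

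Of the other BTG and TOB genes, 3 of 4 were tested and none passed. *Tob2*, an antiproliferative relative, had the smallest p, with a log2 fold change of 0.28 (adjusted p = 0.453 by edgeR). The 11 genes of the CCR4-NOT deadenylase were all tested and none passed, with a median log2 fold change of 0.0061 (range -0.24 to 0.19). *Cnot6*, which encodes a catalytic subunit, had the smallest p, with 33.3 ± 1.12 CPM without training against 36.7 ± 1.21 CPM after it (± SD, 4 mice each; adjusted p = 0.345 by edgeR).

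The IER genes were close to level between the groups. *Ier2* (ENSMUSG00000053560, chromosome 8 from 84661331 to 84662852, minus strand) had 1.62, 1.57, 1.96 and 2.00 CPM in homecage and 1.95, 1.93, 1.92 and 1.85 CPM in SOR replicates 1 to 4. All SOR libraries lay within the homecage range. On the log2 scale the difference was 0.096 (SE 0.129, 95% interval -0.19 to 0.38, adjusted p = 0.857 by edgeR), on 89.5 to 159 estimated counts per library.

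*Ier3* (ENSMUSG00000003541, chromosome 17 from 35821684 to 35822923), which encodes a regulator of ERK signalling and survival, had the fewest counts of the 9, with 55.6 to 89.7 estimated counts per library. It had 1.25, 0.955, 0.999 and 1.13 CPM in homecage and 1.10, 1.17, 1.23 and 1.39 CPM in SOR replicates 1 to 4. The groups overlapped. SOR libraries were on average 0.17 higher on the log2 scale (SE 0.155, 95% interval -0.17 to 0.52, adjusted p = 0.768 by edgeR), and at this depth a rise of 1.4-fold lay just inside the interval, whose upper end was 1.43-fold.

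*Ier5* (ENSMUSG00000056708, chromosome 1 from 155096361 to 155099636, minus strand), which encodes an activator of HSF1, had 30.03, 26.3, 25.5 and 27.0 CPM in homecage and 29.6, 28.5, 32.0 and 26.3 CPM in SOR replicates 1 to 4. Homecage replicate 1 was above 3 of the 4 SOR libraries. The log2 fold change was 0.098 (SE 0.0733, 95% interval -0.064 to 0.26, adjusted p = 0.708 by edgeR). At its upper end the interval stood for a fold change of 1.197.

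None of the genes around the IER proteins passed either. *Ier5l* had a log2 fold change of 0.13 (adjusted p = 0.789 by edgeR) and *Ier3ip1* one of 0.052. The 9 genes for PP2A subunits and HSF1 had log2 fold changes from -0.068 to 0.24 with a median of -8.2e-05, and the smallest p was that of *Ppp2r1b*, a scaffold subunit (adjusted p = 0.490). *Hsf1* itself had 21.9 ± 2.78 CPM without training against 23.0 ± 2.91 CPM after it (± SD, 4 mice each).

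The GADD45 genes differed in the sign of their fold changes, and none passed the adjusted test. *Gadd45b* (ENSMUSG00000015312, chromosome 10 from 80930073 to 80932204) had 5.67, 5.74, 4.71 and 5.62 CPM in homecage and 6.43, 6.16, 8.68 and 8.78 CPM in SOR replicates 1 to 4. Every SOR library was above every homecage library, and SOR replicates 3 and 4 were well above SOR replicates 1 and 2. The means were 5.44 ± 0.485 and 7.51 ± 1.41 CPM (SD, n = 4 per group), which is 0.46 on the log2 scale (SE 0.138, 95% interval 0.16 to 0.77, adjusted p = 0.273 by edgeR). Its unadjusted p of 0.00674 from that test ranked 539 of the 22018 genes. The exact two-sided permutation test gave p = 0.0286, the smallest that 4 against 4 allow over 70 assignments. The fold change was 1.38 with an interval from 1.12 to 1.71. In its spatial data, the study reported *Gadd45b* as induced in the dentate gyrus only. The values here are of the whole dorsal hippocampus and cannot place a change in a subfield.

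Whether *Gadd45b* passed the adjusted p threshold depended on the model. Its adjusted p was 0.0332 with DESeq2, and 0.110, 0.0686 and 0.0427 with 1, 2 and 3 RUVs factors in edgeR's likelihood ratio test, while over the 12 other settings with all samples the estimate stayed at 0.44 to 0.49. Leaving out 1 sample in turn gave log2 fold changes of 0.38 to 0.55 with adjusted p-values of 0.224 to 0.512.

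**Figure D2:**
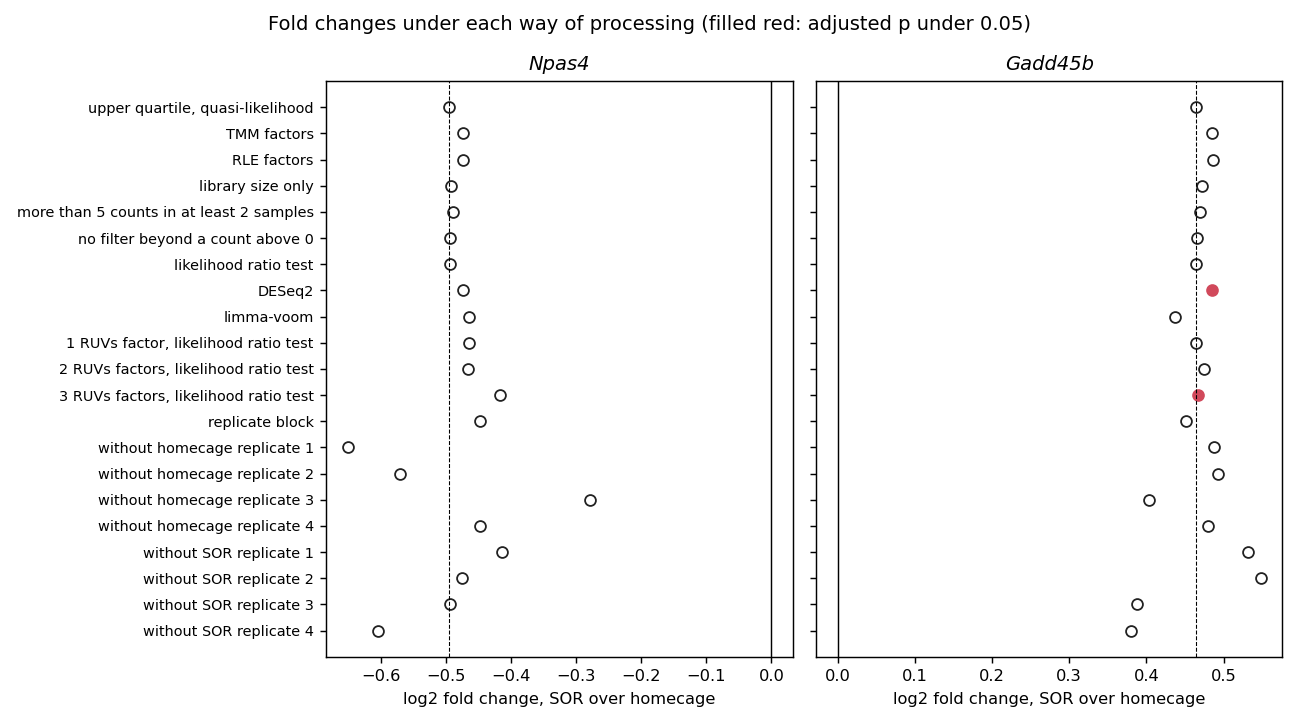
Log2 fold change of SOR over homecage (horizontal axes) for *Npas4* and *Gadd45b* under each setting (rows); filled red points have an adjusted p under 0.05 and the dashed line is the value with upper-quartile scaling and the quasi-likelihood test. *Npas4* stays below 0, between -0.65 and -0.28, and *Gadd45b* above 0, between 0.38 and 0.55, with 2 filled points.

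*Gadd45g* (ENSMUSG00000021453, chromosome 13 from 51846678 to 51848468) had 11.4, 11.2, 12.7 and 11.6 CPM in homecage and 13.3, 13.8, 12.6 and 14.9 CPM in SOR replicates 1 to 4. The groups met at a single pair of libraries, homecage replicate 3 and SOR replicate 3. The group difference was 0.22 on the log2 scale (SE 0.0780, 95% interval 0.051 to 0.40, adjusted p = 0.365 by edgeR), a fold change of 1.17 with an upper end of 1.32. An exact two-sided permutation test gave p = 0.0571. Over the 12 other settings with all samples the adjusted p lay between 0.0864 and 0.526.

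*Gadd45a* (ENSMUSG00000036390, chromosome 6 from 67035096 to 67037457, minus strand), a target of p53, had 2.96, 2.64, 2.78 and 2.60 CPM in homecage and 2.34, 2.18, 2.89 and 2.51 CPM in SOR replicates 1 to 4. The SOR libraries other than replicate 3 were below all homecage libraries. The group difference was -0.14 on the log2 scale (SE 0.123, 95% interval -0.42 to 0.13, adjusted p = 0.751 by edgeR). *E230016M11Rik*, a processed transcript that overlaps exons of *Gadd45a* on the other strand, is not 1 of the 9 genes and is given because of that overlap, its values having been seen. It had 3.67 ± 0.897 CPM without training against 2.33 ± 0.470 CPM after it (± SD, 4 mice each; log2 fold change -0.65, adjusted p = 0.306 by edgeR). The library kit marks strand, but the strand setting of the counting is not given in the sources used here, so reads of the 2 genes may not be fully separated.

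Within the family, 1 of the 3 ratios between genes was apart in the groups. The ratio of *Gadd45b* to *Gadd45a* CPM was 1.91, 2.18, 1.69 and 2.16 in homecage and 2.75, 2.83, 3.01 and 3.49 in SOR replicates 1 to 4, with no overlap of the groups. The ratio of *Gadd45g* to *Gadd45a* was 3.83 to 4.55 in homecage and 4.37 to 6.33 in SOR libraries, with SOR replicate 3 inside the homecage range. The ratio of *Gadd45b* to *Gadd45g* overlapped widely, with 0.372 to 0.513 in homecage and 0.446 to 0.688 in SOR libraries. These ratios were chosen after the values were seen and are given without a test. *Gadd45a* supplied 13.1% to 14.8% of the counts of the 3 genes in homecage and 9.59% to 11.9% in SOR libraries. Its reads may not be fully separated from those of *E230016M11Rik*, a limit on its ratios and its share. *Gadd45b* by itself also had no overlap of the groups.

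**Figure D3:**
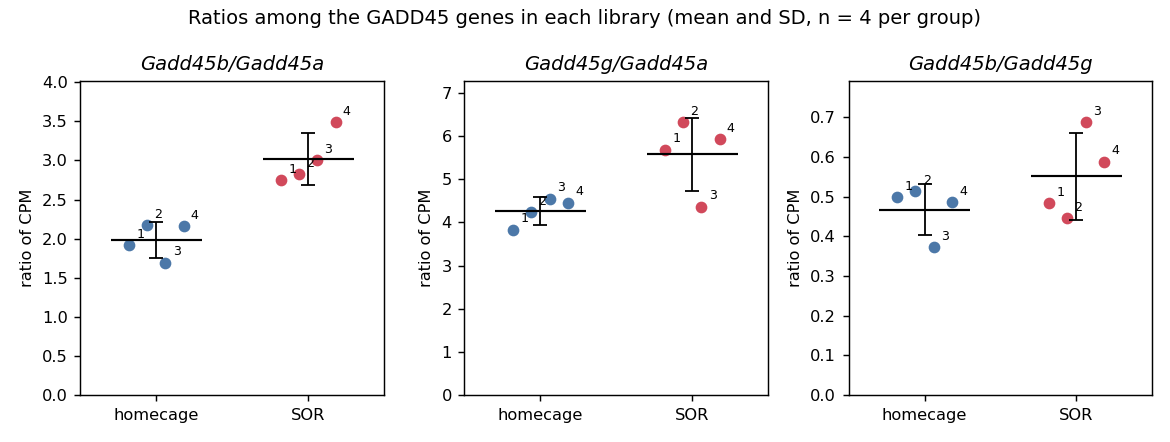
Ratios of CPM (vertical axes, from 0) between the GADD45 genes in each library; points are libraries with their replicate number, and lines with bars are the mean and SD. The groups are apart for *Gadd45b*/*Gadd45a*, at most 2.18 in homecage and at least 2.75 in SOR libraries, and overlap for the other ratios.

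Of 7 genes whose products bind or act with GADD45 proteins, all were tested and none passed. *Cdkn1a*, the gene of the cyclin-dependent kinase inhibitor p21, was nearest, with 1.68 ± 0.263 CPM without training against 2.93 ± 0.552 CPM after it (± SD, 4 mice each), which is 0.80 on the log2 scale (SE 0.169, adjusted p = 0.109 by edgeR) and no overlap of the groups. The study, whose bulk fit held RUVs factors, named *Cdkn1a* among the genes it found by bulk RNA-seq. *Map3k4*, whose product GADD45 proteins activate, had a log2 fold change of -0.037, and *Pcna*, the replication clamp gene, one of 0.012. The 5 genes of DNA demethylation, *Tet1*, *Tet2*, *Tet3*, *Tdg* and *Ercc5*, had log2 fold changes from 0.042 to 0.20 and none passed. *Tet2* had the smallest p among them (adjusted p = 0.561). Since *Btg2* and *Gadd45a* are targets of p53, 14 other p53 target genes were counted. All were tested, none passed, and 13 had log2 fold changes above 0 with a median of 0.13. Over all genes tested, 43.8% were above 0 and the median was -0.019. Of the 14, 4 had an unadjusted p under 0.05 by edgeR, against 10.1% of all genes. The groups did not overlap for 2 of them, against 6.94% of all genes. *Cdkn1a* had the smallest p there as well. *Mdm2*, the gene of the ubiquitin ligase that restrains p53, had a log2 fold change of 0.22 (adjusted p = 0.250 by edgeR). It was also on the list of reported NPAS4 targets.

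Against these values stood 24 other immediate early genes, with a median log2 fold change of 0.68. Of them, 14 passed the adjusted p threshold (edgeR quasi-likelihood test), all higher in SOR mice, against 0.309% of all genes. Several of them were named by the study from these samples, so their direction is not independent evidence.

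Among these early genes, *Arc*, which encodes a cytoskeletal protein of dendrites, had the smallest p, with 91.9 ± 4.98 CPM without training against 246 ± 21.02 CPM after it (± SD, 4 mice each). *Egr2*, *Dusp6*, *Dusp5* and *Fosb* followed by p, and 22 of the 24 had an unadjusted p under 0.05, against 10.1% of all genes. The lowest log2 fold change of the list was that of *Zfp36*, at 0.0066. For 7 of the 9 genes, the upper end of the 95% interval was below a fold change of 1.4, and *Gadd45b* and *Ier3* were the exceptions. The interval lay within 1.4-fold on both sides for 6, *Btg1*, *Btg2*, *Ier2*, *Ier5*, *Gadd45a* and *Gadd45g*.

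**Figure D4:**
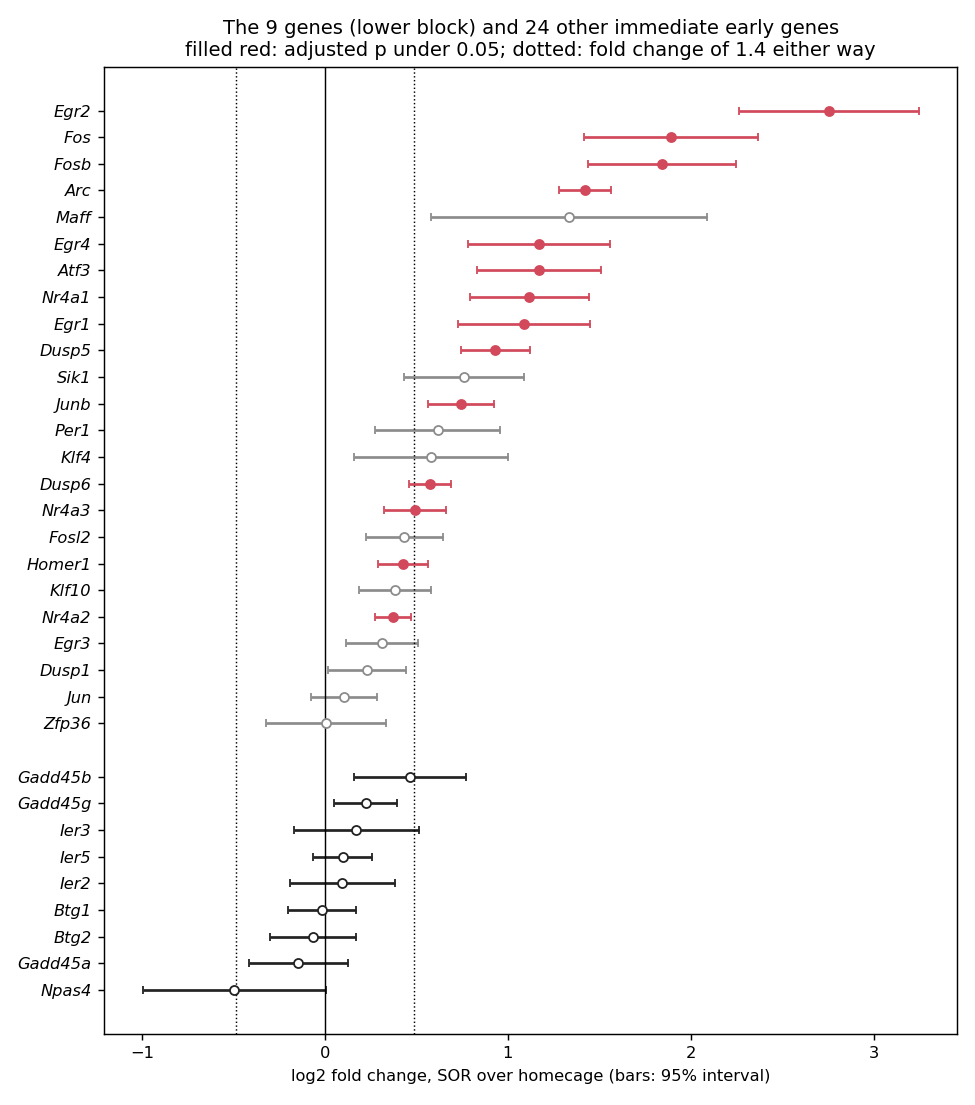
Log2 fold change of SOR over homecage (horizontal axis) with 95% intervals for the 9 genes (lower block) and 24 other immediate early genes (upper block). Filled red points, 14 in the upper block and none in the lower, have an adjusted p under 0.05; dotted lines mark a fold change of 1.4 either way.

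Levels can be compared between the genes only per length, here as CPM per kilobase of annotated exon, which counts every annotated exon whether or not the hippocampus uses it. In homecage mice *Gadd45g* was the highest, with 9.97 ± 0.569 (SD, n = 4), followed by *Ier5* with 8.31 ± 0.601, *Btg1* with 5.54 ± 0.556, *Btg2* with 4.68 ± 0.370 and *Gadd45b* with 3.42 ± 0.305. *Gadd45a* had 1.56 ± 0.0932, *Ier2* 1.17 ± 0.147, *Ier3* 0.959 ± 0.119 and *Npas4* 0.844 ± 0.284. Neighbours in this order whose homecage libraries overlapped were *Btg1* and *Btg2*, *Ier2* and *Ier3*, and *Ier3* and *Npas4*. On this scale *Gadd45g* was above 81.8% of the genes tested and *Npas4* above 36.1%.

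**Figure D5:**
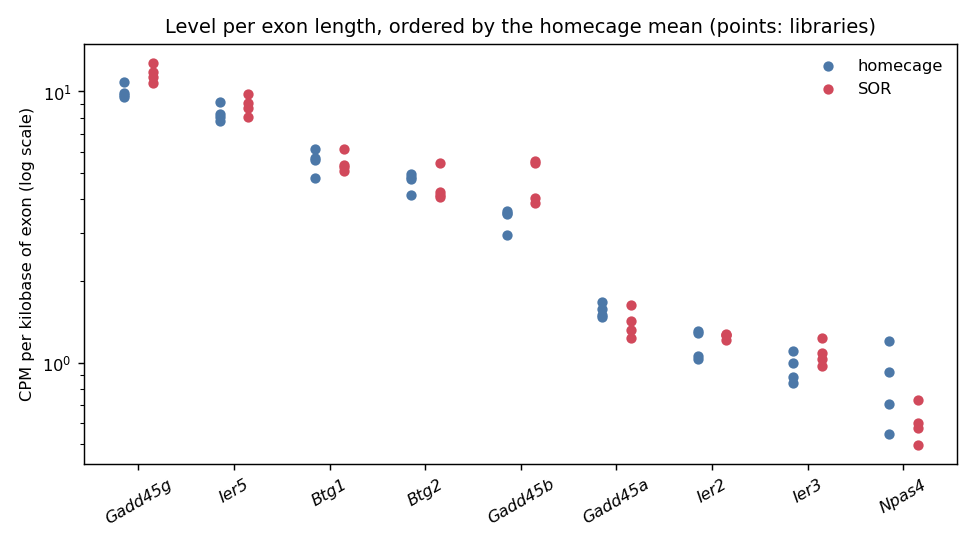
CPM per kilobase of exon (log scale) of the 9 genes in homecage (blue) and SOR (red) libraries, ordered by the homecage mean; points are libraries. Levels run from *Gadd45g*, at 9.54 or more in every homecage library, down to *Npas4*, at 1.1995 or less.

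The tissue carried markers of dentate granule and pyramidal neurons, and its dorsal origin is known from the methods only. The summed level of 5 dentate granule markers was 307 to 361 CPM in homecage and 299 to 352 CPM in SOR libraries. That of 6 pyramidal neuron markers was 570 to 651 and 590 to 632 CPM. None of the genes in the 10 marker lists passed the adjusted p threshold or lacked counts in all libraries, and the summed levels of the groups overlapped for every list. The ranges in homecage and SOR libraries were 475 to 494 and 462 to 513 CPM for inhibitory neurons, 1191 to 1263 and 1146 to 1265 CPM for astrocytes, 5021 to 5480 and 4109 to 5381 CPM for mature oligodendrocytes, 149 to 168 and 144 to 160 CPM for microglia, 110 to 131 and 118 to 122 CPM for endothelial cells, 98.6 to 127 and 115 to 184 CPM for red blood cells, and 162 to 176 and 150 to 177 CPM for thalamus. Choroid plexus markers varied most, from 30.3 to 1115 CPM in homecage and from 43.9 to 4073 CPM in SOR libraries, the highest in SOR replicate 1. All 6 of these markers and all 5 red blood cell markers had log2 fold changes above 0, and all 6 oligodendrocyte markers below 0, and their part in the values of the 9 genes was not tested. Without SOR replicate 1, the log2 fold changes were 0.53 for *Gadd45b* and -0.41 for *Npas4*. Other libraries with choroid plexus signal stayed in that fit, among them homecage replicate 1 with 1115 CPM, so it is no test of the part of these markers. In bulk tissue, fewer cells of a type and less RNA per cell cannot be told apart.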

How the data were processed

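Bulk RNA-seq libraries of 4 homecage and 4 SOR mice were analysed, and the spatial and single-nucleus samples were not analysed here. The authors aligned reads to mm10 with STAR in bcbio-nextgen and deposited a table of estimated counts per gene, not normalized, that is named as tximport output, and 52.6% of its values are not whole numbers. The methods name featureCounts for counting and a stranded kit with depletion of ribosomal RNA, whereas the labels name polyA RNA.

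Counts were rounded, filtered with filterByExpr and scaled by upper-quartile factors, and groups were compared with the quasi-likelihood test of edgeR 4.0.16 (R 4.3.3) over all 22018 genes with Benjamini-Hochberg adjustment. Genes were called at an adjusted p below 0.05 together with a change of more than 1.4-fold. The F statistic and the fitted log2 change gave the standard errors. Gene positions and exon lengths are from GENCODE M21 (GRCm38) and cover 54495 of the 54532 genes. Exact permutation tests were two-sided on log2 CPM with a prior count of 2. The replicates are separate mice, and p-values set the group difference against the spread between them. Between replicates, chi-square over its degrees of freedom lay from 11.1 to 49.2 over the genes with enough counts in the pair compared. That figure does not describe genes with few counts such as *Ier2* and *Ier3*. Also tried were scaling by TMM, RLE or library size, other filters, edgeR's likelihood ratio test alone and with RUVs factors (rebuilt here, their number not being stated), DESeq2 1.42.0, limma-voom 3.58.1, a replicate block and each sample left out. The fits were tested on simulated data.

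All 9 genes were named. Of each gene list, genes past the adjusted p, at most 5, or otherwise the one with the smallest p were named, and any further gene was chosen after its values were seen. The genes with the most similar profile were to be named for each of the 9 that passed, and none did. The genes and lists were chosen with earlier results of these data known.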

Additional observations from a re-analysis of the deposited data

Results flagged for a closer look

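Libraries far from the others of their group were looked for in the 9 genes in both groups, 18 groups of 4 in all, by the gap to the nearest library over the range of the group. The limit was Dixon's 95% critical value, which chance passes in about 1 group in 20, and 2 of the 18 passed. *Btg2* had 14.9 CPM in SOR replicate 4, above the other 3 SOR libraries at 11.2 to 11.7 CPM. *Gadd45b* had 4.71 CPM in homecage replicate 3, below the other 3 homecage libraries at 5.62 to 5.74 CPM, and leaving that library out gave a log2 fold change of 0.40 (adjusted p = 0.512 by edgeR).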

How the results depend on the processing

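The number of the 9 genes past the adjusted p threshold was 0 in the main comparison, and 1 with DESeq2 and 1 with 3 RUVs factors and the likelihood ratio test, *Gadd45b* in both (log2 fold changes 0.49 and 0.47), and it was 0 in each of the 10 other settings with all samples and 0 to 0 with 1 sample left out. No setting called a gene with the fold change threshold, but with DESeq2 *Gadd45b* missed it narrowly, with a log2 fold change of 0.48522 against 0.48543. The log2 fold change of *Btg1* changed sign, with 0.0037 under TMM, 0.0051 under RLE, 0.0053 with DESeq2, 0.037 without homecage replicate 1 and 0.017 without SOR replicate 2 (-0.080 to 0.037 over all samples left out in turn), and the cause was not tested. The other 8 genes kept their direction in all 20 alternatives. TMM, RLE and library size scaling moved the median of all genes by at most 0.021. Same-numbered mice did not vary together (correlations of deviations -0.084 to 0.073), and with the replicate block none of the 9 passed, with an adjusted p of 0.443 for *Gadd45b* and 0.496 for *Npas4*. Depth limits *Ier3* and *Ier2* most.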

Other observations

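Chosen after the values were seen, the profiles of *Npas4* and *Gadd45b* over the 8 libraries (log2 CPM minus the homecage mean) were compared with those of 16351 other genes whose mean reached 1 CPM. Nearest to *Npas4* were *Accs*, *Pla2g4e* and *Zfand4*, with root mean square differences of 0.136, 0.173 and 0.181 on the log2 scale. None of the 3 passed the adjusted p threshold, with log2 fold changes of -0.49, -0.59 and -0.29. Nearest to *Gadd45b* were *Midn*, *Fam43a* and *Chrm4*, with differences of 0.0923, 0.114 and 0.124. *Midn*, which encodes a nuclear protein that delivers early gene products to the proteasome, went from 14.7 to 21.6 CPM on average (log2 fold change 0.56, adjusted p = 0.129 by edgeR), and *Fam43a* and *Chrm4* had log2 fold changes of 0.39 and 0.37. With 8 libraries in 2 groups, closeness of this kind is a description only.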
